A study of Mus musculus with 9 samples.

Results

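The vitamin D receptor gene Vdr and the genes of 2 vitamin D hydroxylases, Cyp24a1 and Cyp27b1, were followed through 9 Affymetrix mouse arrays of primary white adipocytes. The platform's probe table maps 5 probe sets to these 3 genes of 18193 measured: 2 to Vdr, 2 to Cyp24a1 and 1 to Cyp27b1, and all 5 are described. The genes were chosen by their intensities on these same arrays, above all the higher Vdr values with either peptide, so their differences from control are given as descriptions with no test. In the PTH group (3 arrays) the cells received 100 ng/ml PTH(1-34) for 4 h, in the PTHrP group (3 arrays) 100 ng/ml PTHrP(1-34) for 4 h, and 3 arrays served as controls, whose treatment the sources used here do not state. All 9 came from fat cells grown in culture from the inguinal stromal-vascular fraction of male C57BL6 mice aged 30 to 35 days. For the first 2 days the differentiation mix held rosiglitazone (1 µM), dexamethasone (1 µM), isobutylmethylxanthine (0.5 µM) and insulin (5 µg/ml). Insulin and rosiglitazone alone followed, plain medium was used from day 6, and the peptides were added on day 8. Parathyroid hormone (PTH) and the related protein PTHrP are ligands of one receptor, the product of Pth1r, and the numbers (1-34) mean that the amino-terminal piece of each was used. Replicates are called biological in the labels, which do not tie them to separate mice or cultures, so a p-value covers only the spread between these samples.

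Vitamin D acts after hydroxylations that turn it into the hormone calcitriol. The last of these is made by CYP27B1, a mitochondrial cytochrome P450 best known from the kidney tubule, and calcitriol is broken down by CYP24A1, another mitochondrial P450. VDR, a nuclear receptor, binds calcitriol and acts on DNA with a retinoid X receptor as its partner, and Cyp24a1 is its best known target gene. In the kidney, PTH is known to raise Cyp27b1 and to lower Cyp24a1; in fat, VDR is present in fat cells and their precursors.

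Vdr was a clearly measured transcript in control cells and was about 4-fold higher with either peptide, while both hydroxylase genes lay near or below the dim level in every group. The dim level is an intensity of 29.1, the 40th percentile of the mean intensity of all probe sets. The brighter Vdr probe set (1418176_at, Entrez gene 22337) had intensities of 1253, 1225 and 1188 with PTH and of 1304, 1243 and 1189 with PTHrP, against 316, 261 and 269 in controls. All 6 treated arrays lay above all 3 controls, and the lowest treated array was 3.76 times the highest control. The means were 1222 ± 32.9 with PTH and 1246 ± 57.5 with PTHrP, against 282 ± 29.4 in controls (SD, n = 3 each), ratios of 4.34 and 4.42 to the control mean. On the scale of log2(intensity + 16), used for every change below, the change was 2.06 (SE 0.08) with PTH and 2.09 (SE 0.08) with PTHrP. Groups without overlap were common on these arrays: 12.8% of all genes were higher without overlap with PTH and 10.4% with PTHrP, and nothing is read from it for Vdr, since this contrast chose the gene. By size of increase Vdr was number 2 of 18193 genes with PTH and also number 2 with PTHrP; both comparisons use the same 3 control arrays.

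The other Vdr probe set (1418175_at) showed the same groups apart with a somewhat smaller change. Its intensities were 955, 1004 and 970 with PTH and 962, 1071 and 901 with PTHrP, against 306, 249 and 248 in controls. The means were 976 ± 24.9 and 978 ± 86.1 with the peptides, against 268 ± 33.3 in controls (SD, n = 3 each), and the log2 change was 1.81 (SE 0.10) with each. Both probe sets were designed on one source sequence, so they are not independent measurements of the gene. Their log2 values had a Pearson correlation of 0.997 over the 9 arrays, to which the gap between treated and control arrays contributes, and of 0.759 between their deviations from the group means. Among the controls, replicate 1 was the highest on both probe sets. Among the treated arrays the highest was 1.10 times the lowest on the brighter probe set and 1.19 times on the other, so the spread within the treated arrays was small beside the gap to the controls.

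**Figure D1:**
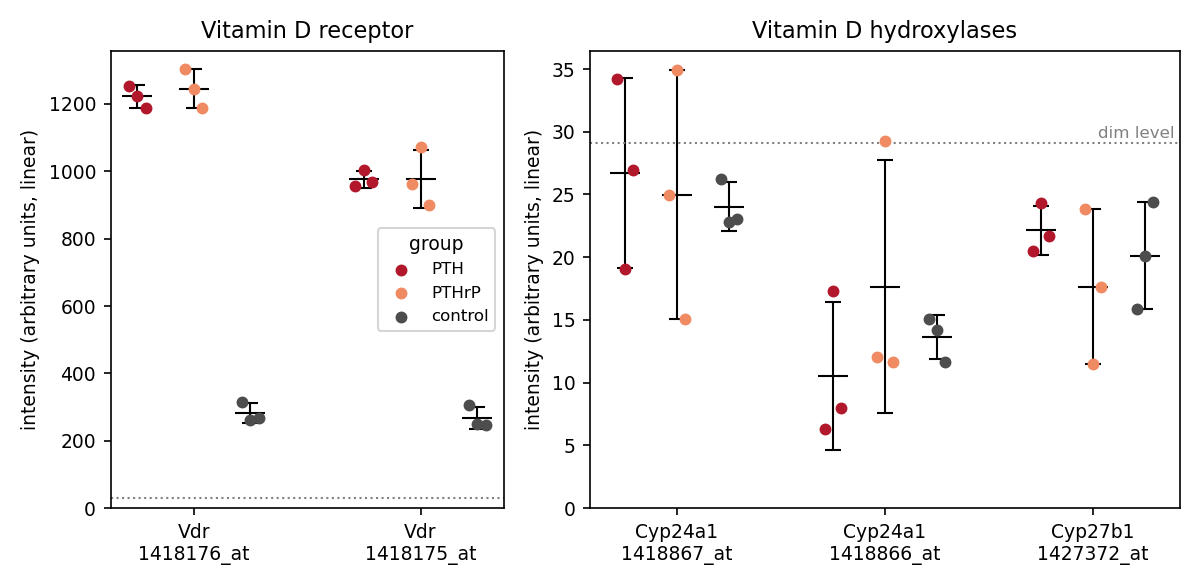
Intensity (linear, arbitrary units, axes from 0) of the 5 probe sets of Vdr, Cyp24a1 and Cyp27b1 on each array, by group (PTH left, PTHrP middle, control right); points are arrays, bars the mean ± SD (n = 3). The treated arrays span 901 to 1304 for Vdr and the controls 248 to 316, while the hydroxylases lie around or under the dotted dim level of 29.1.

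Markers of cell types and measures of RNA quality are given beside the Vdr values. All 6 measured adipocyte markers (7 listed) were above the dim level on every array, with summed intensities of 48465 to 51622 with PTH and 46875 to 49342 with PTHrP, against 46944 to 49121 in controls. Of 6 preadipocyte and fibroblast markers 4 were above it on every array (sums of 26334 to 27746 with PTH and 25770 to 27655 with PTHrP, against 27352 to 27905 in controls), so the cultures held transcripts of both kinds. Fabp4 and Adipoq made up most of the adipocyte sum and Col3a1 most of the fibroblast sum, so these sums mainly follow those genes. The means of Pdgfra, Dcn and Lum were lower with both peptides than in controls, that of Pi16 was higher, and those of Dpp4 and Col3a1 went either way. The RNA was of whole cultures, in which fewer cells of a type and less RNA per cell cannot be told apart. Of 4 measured osteoblast markers (5 listed) 3 were above it on every array. The sum of the 4 was higher in all treated arrays, at 397 to 452 with PTH and 428 to 465 with PTHrP, against 338 to 363 in controls. Alpl was the largest part of that sum, with means of 302 and 324 with PTH and PTHrP, against 228 in controls. The means of Sp7 were lower, at 64.7 and 67.1 against 70.8. Those of Ibsp were 42.3 and 40.2 against 42.4. Dmp1, below the dim level on every array, had higher means with both peptides. Macrophage markers, 5 of 6 above it on every array, summed to 1068 to 1222 with PTH and 1051 to 1187 with PTHrP, against 995 to 1086 in controls. Csf1r was the largest part of that sum, with means of 603 and 599 with the peptides, against 491 in controls. The means of Adgre1, Cd68 and Lyz2 were lower with both peptides than in controls, and that of Cd14 was higher. That of Ptprc was higher with PTH and lower with PTHrP, and 0 of the 6 macrophage markers passed limma with either peptide. Endothelial markers, 3 of 5 above the dim level on every array, summed to 214 to 245 and 218 to 303 with the peptides, against 261 to 316 in controls. Of 5 kidney tubule markers and of 6 epithelial and keratinocyte markers 0 were above it on every array. For the actin control transcript, the signal at the 3' end over that at the 5' end was 1.59 to 1.65 with PTH. It was 1.52 to 1.61 with PTHrP, against 1.45 to 1.51 in controls, so it too lay higher in all treated arrays, as Vdr did. The same ratio for the Gapdh control transcript overlapped between the groups. It was 0.9802 to 0.9885 with PTH and 0.9307 to 0.9753 with PTHrP, against 0.9495 to 0.9854 in controls. The part of the osteoblast marker sum and of the actin ratio in the higher Vdr values was not tested.

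The promoters of Vdr, which differed most, and of Cyp27b1, the hydroxylase gene that PTH is known to raise in kidney, are shown to set their letters side by side; the RefSeq table held 2 of the 3 genes (Vdr and Cyp27b1). The Vdr window, the 250 bases before the annotated start, is chr15:97908297-97908546 (GRCm38.p6, minus strand), and capitals mark the GC box GGGCGG. The Cyp27b1 window is chr10:127047996-127048245 (GRCm38.p6, plus strand), and capitals mark the CCAAT box, which lies there on the opposite strand.
Vdr: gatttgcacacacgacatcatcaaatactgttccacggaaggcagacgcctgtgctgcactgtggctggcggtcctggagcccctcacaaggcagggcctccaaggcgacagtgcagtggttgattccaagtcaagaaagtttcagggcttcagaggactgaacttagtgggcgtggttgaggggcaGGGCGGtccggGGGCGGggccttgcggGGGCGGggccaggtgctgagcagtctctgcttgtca
Cyp27b1: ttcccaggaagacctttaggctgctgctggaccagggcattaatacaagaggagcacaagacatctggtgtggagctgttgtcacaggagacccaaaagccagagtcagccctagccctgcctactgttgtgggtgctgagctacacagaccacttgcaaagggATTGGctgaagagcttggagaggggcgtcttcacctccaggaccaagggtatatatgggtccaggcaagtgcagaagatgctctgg
Vdr held 3 GC boxes and no CCAAT box, and Cyp27b1 held 1 CCAAT box and no GC box. On either strand, GGGCGG occurred in 32.7% and CCAAT in 33.8% of 32851 mouse promoter windows of the same length. Neither window held the full cAMP response element TGACGTCA (1.55% of windows), its shorter core TGACG (17.8%; the full element contains it) or the nuclear receptor core AGGTCA (14%). Neither held TATAAA (12.4%), the only form of the TATA box searched for, while the Cyp27b1 window does hold the letters tatatatg near its end. This says only that the letters searched for are not in these windows. Vdr had 61.2% G or C and Cyp27b1 54.4%.

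Cyp24a1 stayed dim with both peptides. Its brighter probe set (1418867_at, Entrez gene 13081) had intensities of 34.2, 19.0 and 27.0 with PTH and of 24.96, 34.9 and 15.1 with PTHrP, against 26.3, 22.8 and 23.0 in controls. The groups overlapped, and only 2 of 9 arrays, PTH replicate 1 and PTHrP replicate 2, exceeded the dim level. The log2 change was 0.08 (SE 0.18) with PTH and 0.01 (SE 0.18) with PTHrP. The other probe set (1418866_at) had 6.31, 17.3 and 7.97 with PTH and 12.1, 29.3 and 11.6 with PTHrP, against 15.1, 14.2 and 11.6 in controls. Its log2 change was -0.18 (SE 0.21) with PTH and 0.15 (SE 0.21) with PTHrP, again with overlapping groups. PTHrP replicate 2 was the highest of the 9 arrays on both Cyp24a1 probe sets.

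Cyp27b1 was below the dim level on all 9 arrays. Its probe set (1427372_at, Entrez gene 13115) had 20.5, 24.3 and 21.7 with PTH and 23.8, 11.5 and 17.7 with PTHrP, against 15.9, 20.1 and 24.4 in controls. The groups overlapped, and the log2 change was 0.08 (SE 0.14) with PTH and -0.11 (SE 0.14) with PTHrP. For both hydroxylases the signal is too close to the background of the arrays to order the groups, and a change within it would not have been detectable. Each probe has its own brightness, so the dim level and the marker sums, which set different probe sets beside each other, are rough guides.

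PTH and PTHrP, at the same dose and time, were set against each other for the 3 genes in the fit over all probe sets. For Vdr the difference (PTH minus PTHrP) was -0.03 on the brighter probe set, with a 95% interval from -0.21 to 0.15, which is 0.867 to 1.11 times on the linear scale of intensity + 16 (limma, adjusted p = 1). On the other Vdr probe set it was 0.0006, with an interval from -0.22 to 0.22. For Cyp24a1 the intervals ran from -0.35 to 0.50 and from -0.81 to 0.16, and for Cyp27b1 from -0.12 to 0.51 (adjusted p = 1 in each). A peptide difference in Vdr larger than about those bounds thus lay outside the interval, while for the dim hydroxylases the interval was wide. None of the 5 probe sets passed, and across the 18193 genes limma called 0 (0%), with 731 at an unadjusted p below 0.05.

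The retinoid X receptors, with which VDR binds DNA, had no call with either peptide. Rxra had 533, 535 and 508 with PTH and 477, 535 and 527 with PTHrP, against 509, 531 and 508 in controls (log2 change 0.03 and -0.01). Rxrb had log2 changes of -0.0050 and -0.07 and Rxrg of -0.13 and -0.09 with PTH and PTHrP, all with groups that overlapped. Of 18 measured VDR partners and coregulators (20 listed), which include the coactivator Ncoa3 and the acetyltransferase Crebbp, 0 rose and 0 fell with either peptide in limma, against a background of 6.06% of all genes called with PTH (2.94% higher and 3.12% lower) and 5.56% with PTHrP (2.53% higher and 3.02% lower). All 18 were above the dim level in at least 1 group. Their log2 changes lay between -0.17 and 0.09 with PTH and between -0.30 and 0.10 with PTHrP. The largest with PTH was that of Brd9, a chromatin remodelling subunit (-0.17, adjusted p = 0.151), and the largest with PTHrP that of Ncoa3 (-0.30, adjusted p = 0.350). Brd9 lay below every control on the 3 arrays of each peptide, as did 13.2% of all genes with PTH and 12% with PTHrP. Crebbp had -0.13 with PTH and -0.08 with PTHrP.

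Among nuclear receptor genes, Vdr had the largest increase with both peptides, which is a description, since the gene was chosen for it. Of the 43 others measured (48 listed), 1 rose and 1 fell with each peptide, near the share of all genes called (6.06% with PTH and 5.56% with PTHrP), and the median log2 change was 0.01 with PTH and -0.01 with PTHrP, against -0.0026 and -0.0049 over all genes. The one that rose was Nr4a3, an orphan receptor, from its brightest probe set: 102, 110 and 130 with PTH and 136, 114 and 99.1 with PTHrP, against 52.2, 48.2 and 58.3 in controls (log2 change 0.92 and 0.93, limma adjusted p = 0.0037 and 0.0035). Averaged over its probe sets, Nr4a3 had 0.25 and 0.28 and did not pass (adjusted p = 0.0785 and 0.0523). The one that fell was the clock repressor Nr1d2, named after its values were seen (log2 change -0.34 and -0.28, adjusted p = 0.0115 and 0.0270). The call for Nr1d2 with PTH was lost without PTH replicate 2 (0.0532), and that with PTHrP without PTH replicate 3, PTHrP replicate 2, PTHrP replicate 3, control replicate 2 or control replicate 3 (0.0558 to 0.0904). The mean of its probe sets did not pass with either peptide (0.103 and 0.412). Nr1i3, a receptor for foreign compounds, had -0.44 with PTH (adjusted p = 0.0941, or 0.0335 without PTH replicate 2). Its 3 PTH arrays lay below the dim level, at 12.95 to 25.7, against 29.7 to 32.3 in controls. The thyroid hormone receptor gene Thrb and Rorb had 0.44 and 0.38 with PTHrP (adjusted p = 0.296 and 0.163). With the mean of its probe sets Rorb passed with PTHrP (0.30, limma adjusted p = 0.0294).

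**Figure D2:**
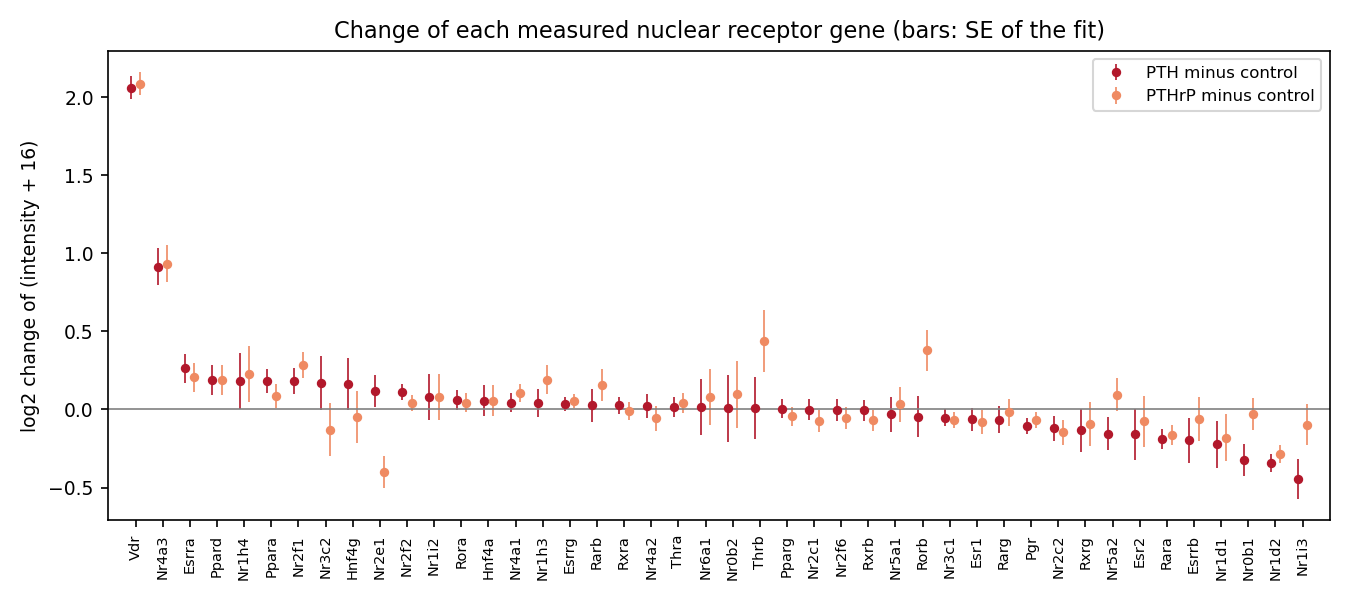
Log2 change of (intensity + 16) of the 44 measured nuclear receptor genes, ordered by their change with PTH; dark points are PTH minus control, light points PTHrP minus control, bars the SE of the fit. Vdr stands at 2.06 and 2.09, Nr4a3 at 0.92 and 0.93, and the other 42 lie between -0.44 and 0.44; both contrasts use the same controls.

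Of 5 measured mitochondrial P450s and their electron donors (7 listed, besides both hydroxylases), 1 rose and 0 fell with each peptide, and 3 were above the dim level; over all genes 2.94% rose with PTH and 2.53% with PTHrP. Fdx1, the ferredoxin that hands electrons to mitochondrial P450s, had 2104, 2325 and 2230 with PTH and 2133, 2042 and 2131 with PTHrP, against 1833, 1783 and 1770 in controls. All 6 treated arrays lay above the controls (log2 change 0.30 and 0.23, limma adjusted p = 0.0122 and 0.0429). For a single peptide, 12.8% of all genes were higher without overlap with PTH and 10.4% with PTHrP. The PTH call for Fdx1 was lost without PTH replicate 2 (0.0523) or PTH replicate 3 (0.0599), and the PTHrP call without any 1 array other than PTH replicate 1 (0.0534 to 0.139). Cyp27a1, which hydroxylates sterols and vitamin D, had 73.5, 112 and 79.9 with PTH and 119, 80.0 and 93.5 with PTHrP, against 108, 99.9 and 92.3 in controls, with overlapping groups (log2 change -0.17 and -0.04). Cyp11b1, an enzyme of adrenal steroid synthesis, had -0.08 and -0.18 and did not pass.

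Of 10 measured genes of vitamin D synthesis, transport and uptake (11 listed), 0 rose and 1 fell with each peptide, and 7 were above the dim level; over all genes 3.12% fell with PTH and 3.02% with PTHrP. The one that fell was Dab2, an adaptor protein for endocytosis by megalin, with 239, 237 and 237 with PTH and 219, 236 and 234 with PTHrP, against 290, 330 and 309 in controls (log2 change -0.36 and -0.40, limma adjusted p = 0.0099 and 0.0061). With the mean of its probe sets Dab2 did not pass (-0.12 and -0.16, adjusted p = 0.444 and 0.332). Cyp2r1, the liver enzyme of the first hydroxylation of vitamin D, had 63.0, 67.3 and 61.9 with PTH and 76.1, 61.0 and 69.9 with PTHrP, against 84.0, 91.1 and 77.5 in controls. With each peptide the 3 arrays of Cyp2r1 were below all 3 controls, as were those of 13.2% of all genes with PTH and of 12% with PTHrP. It did not pass (log2 change -0.32 and -0.24, adjusted p = 0.0531 and 0.141). With PTH, Cyp2r1 passed without PTHrP replicate 1 (0.0490) or PTHrP replicate 2 (0.0374), with a pseudocount of 64 (0.0352), with the dimmest 40% of genes left out (0.0252) and with array weights (0.0307). Dhcr7, which turns the precursor of vitamin D into cholesterol, had -0.13 and -0.20, and the P450 gene Cyp3a13 had 0.26 and -0.02, none of them past the test.

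Of 19 measured known VDR target genes (24 listed, besides Cyp24a1), 1 rose and 0 fell with each peptide, 18 did not pass, and 13 were above the dim level. This count is near the background share of all genes called (6.06% with PTH and 5.56% with PTHrP) and is not a result about VDR targets. The median log2 change was 0.07 with PTH and 0.04 with PTHrP. The one that rose was Tnfsf11, the cytokine RANKL, which was known to rise on these arrays when the list was drawn up: 231, 278 and 268 with PTH and 287, 226 and 204 with PTHrP, against 69.8, 61.7 and 68.9 in controls (log2 change 1.73 and 1.61, limma adjusted p = 0.00021 and 0.00025). Car2, a carbonic anhydrase, lay above every control on the 3 arrays of each peptide, as did 12.8% of all genes with PTH and 10.4% with PTHrP, and did not pass (log2 change 0.44 and 0.41, adjusted p = 0.0712 and 0.0929). Car2 passed with PTH and PTHrP with a pseudocount of 64 (0.0317 and 0.0445), with the dimmest 40% of genes left out (0.0362 and 0.0491) and with a trended and robust variance (0.0097 and 0.0159), and with PTH without control replicate 1 (0.0402). The calcium channel gene Trpv6, a VDR target of the intestine, had -0.21 and -0.04 (adjusted p = 0.195 and 0.864); it is named outside the rule, after its values were seen. The protease inhibitor gene Cst6 had 0.24 and 0.21, and the phosphate transporter gene Slc34a1 had 0.03 and 0.31, with no call.

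Hormones, receptors and factors that regulate the hydroxylases, with 14 measured of 15 listed and 10 above the dim level, gave 2 that rose and 1 that fell with each peptide. Over all genes 2.94% rose and 3.12% fell with PTH, and 2.53% rose and 3.02% fell with PTHrP. The receptor gene Pth1r had 224, 239 and 279 with PTH and 231, 253 and 250 with PTHrP, against 332, 344 and 333 in controls (log2 change -0.43 and -0.43, limma adjusted p = 0.0174 and 0.0171). The PTH call for Pth1r was lost without PTH replicate 1, PTH replicate 2, control replicate 2 or control replicate 3 (0.0538 to 0.0719), and the PTHrP call without PTHrP replicate 1 or any 1 control (0.0505 to 0.0710). Crem, a cAMP-responsive transcription factor gene, rose from its brightest probe set (log2 change 0.91 and 0.94, adjusted p = 0.00038 and 0.0003; 0.46 and 0.31 with the mean of its probe sets). Cebpb, a factor known to act on both hydroxylase genes, rose by 0.21 and 0.23 (adjusted p = 0.0414 and 0.0350), a call lost with either peptide without any 1 array other than PTHrP replicate 3 (0.0564 to 0.152). Fgfr3, a receptor for fibroblast growth factors, had 0.10 and -0.22 and did not pass.

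**Figure D3:**
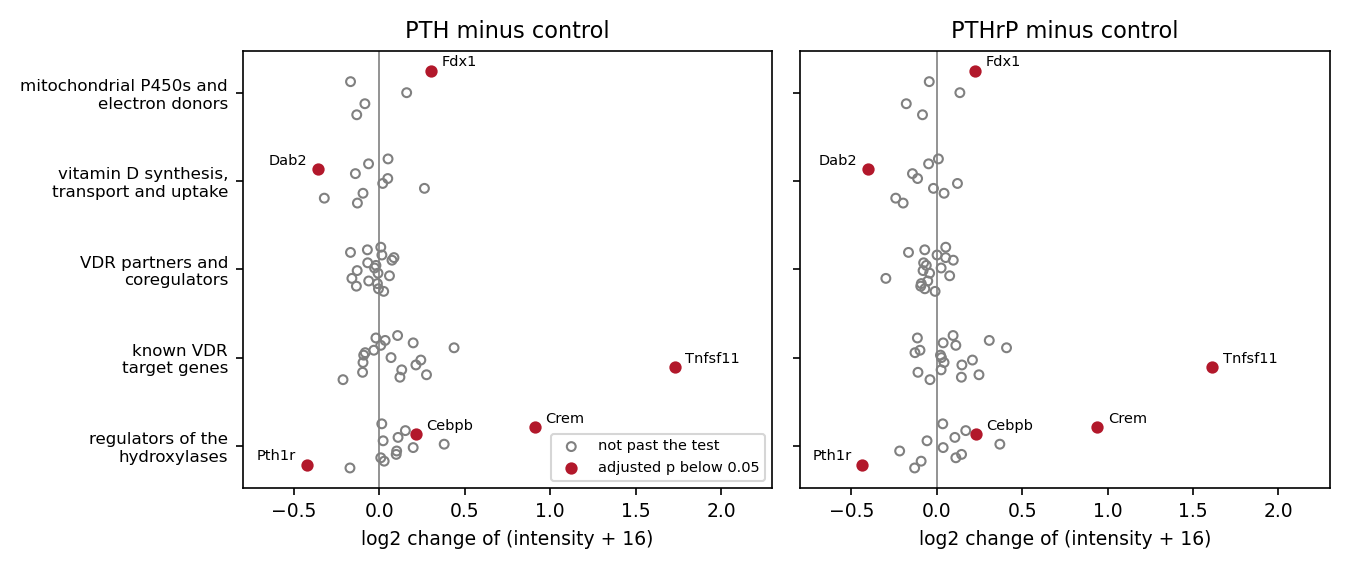
Log2 change of (intensity + 16) of each measured member of 5 lists around vitamin D, with PTH (left) and PTHrP (right), both against the same controls; filled points passed limma at an adjusted p below 0.05, open points did not. Filled points are Fdx1, Dab2, Tnfsf11, Crem, Cebpb and Pth1r on both sides, and no partner or coregulator of VDR is filled.

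The genes whose log2 values followed those of Vdr most closely over the 9 arrays were Has2, a hyaluronan synthase (Pearson r = 0.9992), Slc39a14, a zinc and iron transporter (0.9979), Shisa6, a membrane protein (0.9972), Pitpnc1, a phosphatidylinositol transfer protein (0.9972), and Nxn, a thioredoxin-like protein (0.9969). They were the highest of 12295 genes above the dim level in at least 1 group, with symbols shaped like clone names left out. All share the 9 arrays and their groups, so the gap between treated and control arrays enters each of these values. Within the groups, deviations from the group mean correlated with those of Vdr at 0.930 for Has2, 0.882 for Slc39a14, 0.799 for Shisa6, 0.466 for Pitpnc1 and 0.848 for Nxn. The r that chose these genes already contains these deviations, so they are no separate support for a shared pattern. Has2 had 880, 874 and 878 with PTH and 915, 887 and 836 with PTHrP, against 385, 329 and 352 in controls. As on the brighter Vdr probe set, its highest treated array was PTHrP replicate 1 and its highest control was replicate 1; on the other Vdr probe set the highest treated array was PTHrP replicate 2. The log2 changes of the 5 genes were smaller than that of Vdr, between 0.57 for Nxn and 1.27 for Has2 with PTH.

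The genes most opposite to Vdr over the arrays were Fhl2, a LIM domain protein (r = -0.9988), Phldb2, a pleckstrin homology domain protein (-0.9973), and Tmem119, a membrane protein (-0.9966). Fhl2 had 662, 658 and 658 with PTH and 639, 650 and 691 with PTHrP, against 1408, 1663 and 1629 in controls (log2 change -1.22 with each). Control replicate 1, the highest control for Vdr, was the lowest control for Fhl2. Phldb2 had log2 changes of -0.67 and -0.68 and Tmem119 of -0.56 and -0.57. All 8 genes were chosen for this pattern, which includes the order of arrays within the groups, so no test is given for them.

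**Figure D4:**
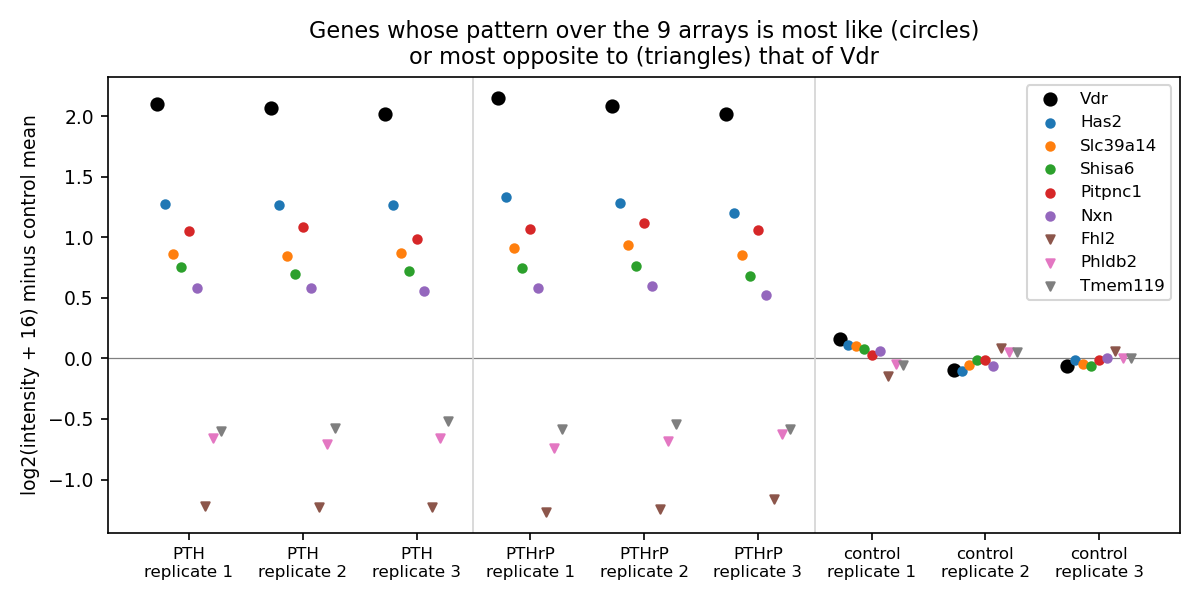
Log2(intensity + 16) minus the control mean on each array for Vdr (large black circles), the 5 genes most like it (small circles) and the 3 most opposite (triangles), with PTH arrays left, PTHrP arrays in the middle and controls right. Vdr lies near 2 on all 6 treated arrays and the triangles lie below 0 there; replicates have no order.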

How the data were processed

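The values were intensities of 45101 probe sets as deposited by the authors; how they were summarised, corrected and scaled was not stated in any source used here, and their range is that of a linear scale. Median intensities lay between 48.2 and 52.6 per array. Each of 18193 genes with a probe set of 1 gene symbol was represented by its brightest probe set by mean log2 value; 64 array controls, 932 probe sets with several symbols and 9160 with none were left out of the gene fit.

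Log2(intensity + 16) was fitted with limma 3.58.1 in R 4.3.3 with a mean per group and empirical Bayes variance. P-values were two-sided and Benjamini-Hochberg adjusted, over all genes or, for the members, over 45037 probe sets, with a threshold of 0.05. The number of arrays limits the precision. Members and lists were chosen with earlier results of these data known. Text names the members, Rxra, Rxrb, Rxrg, Cyp2r1, Cyp27a1, Tnfsf11 and Pth1r. It also names the 4 largest changes per list among genes above the dim level. The 5 genes most like and 3 most opposite to Vdr are named too. For these, symbols shaped like clone or model names were passed over. That form includes any symbol beginning with a capital A to E and a digit, so some named genes were dropped as well. The fit was checked on simulated data. Alternatives are given in the closing section. Plots used matplotlib 3.10.9 (Python 3.11.15).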

Additional observations from a re-analysis of the deposited data

How the results depend on the processing

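The brightest-probe-set change of Vdr stayed between 1.90 and 2.14 with PTH and between 1.92 and 2.17 with PTHrP over 20 alternatives; it moved by more than the spread within groups with a pseudocount of 64 (1.90 and 1.92) and with the mean of the probe sets (1.94 and 1.95). The other Vdr probe set moved with a pseudocount of 64 (1.65 with each peptide). Leaving out 1 array gave 2.01 to 2.14 for PTH and 2.04 to 2.17 for PTHrP on the brighter probe set. The difference between the peptides never passed for any member, and its sign turned for Vdr without PTHrP replicate 1 (-0.059 to 0.0069 over arrays left out), for the other Vdr probe set with quantile normalization (-0.0017), array weights (-0.0036) and arrays left out (-0.056 to 0.067), and for Cyp24a1 with the mean of probe sets (-0.13) and arrays left out (-0.11 to 0.24). Leaving out the dimmest 40% removes Cyp24a1 and Cyp27b1, so no value exists there; in the other alternatives their changes ranged from -0.05 to 0.22 and from -0.16 to 0.19 (Cyp24a1 with PTH and PTHrP) and from -0.0019 to 0.17 and from -0.24 to 0.03 (Cyp27b1). On the other Cyp24a1 probe set (1418866_at) the change ranged from -0.46 to -0.06 with PTH and from -0.09 to 0.27 with PTHrP. Its difference between the peptides ranged from -0.69 to -0.09, with no call.

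Genes called numbered 1103 with PTH and 1011 with PTHrP. A trended and robust variance gave 1741 and 1647, the 2 groups alone gave 454 with PTHrP, and arrays left out gave 468 to 1047 and 512 to 769 (moving by over 1.5 times without any 1 PTH array or control replicate 2 or 3 for PTH, and without PTH replicate 3, PTHrP replicate 1 or control replicate 2 or 3 for PTHrP). Between the peptides a pseudocount of 1 gave 2 calls and arrays left out 0 to 1. The lists held 5, 10, 18, 19, 14 and 43 measured genes, some of them shared between lists. Over all genes 2.94% rose and 3.12% fell with PTH, and 2.53% rose and 3.02% fell with PTHrP. List members that rose numbered 5 with each peptide: 3 and 3 with the mean of probe sets, 3 with PTHrP under median centring or the 2 groups alone, up to 6 and 7 in other alternatives (7 with a trended and robust variance), and 3 to 5 and 3 to 4 with arrays left out. List members that fell numbered 3: 1 and 1 with the mean of probe sets, up to 4 and 4 in other alternatives, and 2 to 4 and 1 to 3 with arrays left out. The replicate block gave 671 and 572 genes called, 3 list members that rose with each peptide, and Vdr changes of 2.06 and 2.09. Whether the numbers pair the samples is not known. Same-numbered arrays had correlated deviations (over 0.1) in 2 of 9 pairs (-0.255 to 0.185), while 18 pairs of other numbers had -0.246 to 0.319. In 3 of 9 comparisons of an array with the 3 arrays of another group the same number correlated best. With 3 arrays per group these values cannot settle it, and the main fit used no pairing.

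Cebpb with both peptides and Fdx1 with PTHrP also lost their calls under median centring, the mean of probe sets, the replicate block and the 2 groups alone; the block also ended those of Fdx1 with PTH (adjusted p = 0.0528) and Nr1d2 with PTHrP (0.0921), the last also lost with the 2 groups alone (0.0912).

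Changes near 0 turned sign without a call. Rxrb with PTH was 0.012 under median centring and -0.057 to 0.034 with arrays left out, Rxra with PTHrP was 0.042 with the mean of probe sets and -0.039 to 0.040 with arrays left out, Cyp3a13 with PTHrP was 0.0029 with array weights and -0.13 to 0.13 with arrays left out, and Rorb with PTH was 0.16 with the mean of probe sets and -0.14 to 0.028 with arrays left out. With arrays left out, Rxrg with PTHrP ranged from -0.22 to 0.029, Thrb with PTH from -0.12 to 0.18, Cyp27a1 with PTHrP from -0.18 to 0.071, Crebbp with PTHrP from -0.13 to 0.0070, Slc34a1 with PTH from -0.081 to 0.13, and Cyp11b1 from -0.26 to 0.12 with PTH and -0.35 to 0.026 with PTHrP. The cause was not tested for any of these. Dimness limits the hydroxylases in every alternative.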

Other observations

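Alpl, the tissue alkaline phosphatase, is named because it carried most of the osteoblast marker sum. Its intensities were 308, 283 and 315 with PTH and 310, 341 and 321 with PTHrP, against 248, 204 and 233 in controls. Alpl passed limma with both peptides (log2 change 0.38 and 0.48, adjusted p = 0.0260 and 0.0105). The other 3 osteoblast markers measured, Sp7, Ibsp and Dmp1, did not pass. Among adipocyte markers only Cidec, a lipid droplet protein gene, passed (log2 change 0.28 and 0.31, adjusted p = 0.0375 and 0.0304), and among preadipocyte and fibroblast markers only Lum, a matrix proteoglycan gene, with PTH (log2 change -0.37, adjusted p = 0.0135).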
